A study of Mus musculus with 8 samples.

Results

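The 50 genes described here encode chemokines and chemokine receptors measured in the ileum of male KKAy mice, out of 19505 named genes on the array. They were chosen by symbol alone: every platform symbol beginning with Ccl, Cxcl, Ccr, Cxcr or Xcl and a digit, with Cx3cl1 and Cx3cr1, leaving out the 5 monocyte-recruiting genes Ccr2, Ccl2, Ccl7, Ccl8 and Ccl12. These symbols matched 51 probe sets, of which 2 belonged to Ccl21b, and the brighter of them on average was kept. The members were 34 ligands and 16 receptors. By textbook role, 10 ligands are homeostatic, 16 inflammatory and 8 of mixed or other role, and 5 receptors are homeostatic, 5 inflammatory and 6 of mixed or other role.

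The voglibose group was 4 male KKAy mice, gavaged once a day with voglibose at 1 mg/kg for 8 weeks, after 4 weeks of a high-fat diet in which fat supplied 45% of the energy. The water group was 4 male KKAy mice of the same age (14 weeks on the labels) on the same diet, given water by gavage on the same schedule. KKAy mice carry the yellow agouti allele and become obese and diabetic, so both groups were diabetic-model animals and no lean or untreated strain was compared. Voglibose blocks brush border enzymes that release glucose from starch and sugars. Each mouse had its own array, made from some 4 cm of ileum. In such bulk tissue, fewer cells of a type and less RNA per cell cannot be told apart.

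Chemokines are small secreted proteins that steer leukocytes by binding receptors that signal through inhibitory G proteins. Homeostatic chemokines are made steadily and place lymphocytes in lymphoid tissue and at mucosal surfaces, as Cxcl13 does for B cells in follicles and Ccl25 for T cells of the small intestine. Inflammatory chemokines are induced by cytokines and microbial products and recruit effector cells, as the interferon-induced ligands Cxcl9, Cxcl10 and Cxcl11 do for lymphocytes that carry Cxcr3.

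The promoters of Cxcl9, Cxcl10 and Cxcl14 are shown because these were the 3 members with lower signal after voglibose at an unadjusted p under 0.05. Each run holds the 250 bases before the start site, from RefSeq on GRCm38.p6, in the direction of the gene. Capitals mark matches on either strand to 2 elements, each made of 2 short parts around free bases. These are the interferon response element (GAAA, 2 free bases, GAAA) and the NF-kappaB element (GGGA, 2 free bases, TTCC).
Cxcl9, chr5:92328080-92328329, minus strand: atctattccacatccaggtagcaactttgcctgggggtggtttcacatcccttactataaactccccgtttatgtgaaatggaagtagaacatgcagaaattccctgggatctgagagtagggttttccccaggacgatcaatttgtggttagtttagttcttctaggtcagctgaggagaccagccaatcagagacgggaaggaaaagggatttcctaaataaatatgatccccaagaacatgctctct
Cxcl10, chr5:92348890-92349139, minus strand: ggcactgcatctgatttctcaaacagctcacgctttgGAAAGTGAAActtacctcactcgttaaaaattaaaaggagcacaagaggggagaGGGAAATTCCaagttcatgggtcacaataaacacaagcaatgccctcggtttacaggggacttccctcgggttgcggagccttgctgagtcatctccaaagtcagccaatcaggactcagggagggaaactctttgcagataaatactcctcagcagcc
Cxcl14, chr13:56296552-56296801, minus strand: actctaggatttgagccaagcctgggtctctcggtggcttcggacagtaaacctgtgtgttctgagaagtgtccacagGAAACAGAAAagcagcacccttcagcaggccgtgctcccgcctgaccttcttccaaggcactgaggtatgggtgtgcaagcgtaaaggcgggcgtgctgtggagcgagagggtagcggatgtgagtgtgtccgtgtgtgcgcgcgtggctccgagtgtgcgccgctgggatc
Cxcl10 held the interferon response element at -213 and the NF-kappaB element at -159, each position being that of the first base counted back from the start site. Cxcl14 held the interferon response element at -172, and Cxcl9 held no exact match to either element in this window. Similar stretches with other letters or spacing were not searched for. No match overlapped another motif in these runs.

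For comparison, the neutrophil ligands Cxcl1, Cxcl2 and Cxcl3, whose signals are given below, shared 1 stretch of letters. The 30 bases around it are given with both overlapping matches of the NF-kappaB element, 1 on each strand, in capitals.
Cxcl1, chr5:90891165-90891194, plus strand: ctgtactccGGGAATTTCCCtggcccggag
Cxcl2, chr5:90903793-90903822, plus strand: ctgagctcaGGGAATTTCCCtggtccccgg
Cxcl3, chr5:90786019-90786048, plus strand: agctgcgggGGGAATTTCCCcagcccgggc
The stretch GGGAATTTCCC was the same in all 3 genes. Of the 50 members, 37 had a promoter in the RefSeq table, with 41 promoters in all. The NF-kappaB element was found in 6 of the 37 genes (Cxcl1, Cxcl2, Cxcl3, Cxcl10, Ccl1 and Ccr3), and in 1.21% of all 32851 promoters. The interferon response element was found in 3 of the 37 genes (Cxcl10, Cxcl14 and Ccl19), and in 2.98% of all promoters. Members are counted by gene, with a match in any promoter, and the whole set by promoter. As Cxcl1, Cxcl2 and Cxcl3 also share 1 stretch, no enrichment is read from these counts. All are matches of letters and not measured binding.

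Values are log2 signals, so a difference of 1 is a doubling, and the middle value of the whole array was 5.91 with a lower quartile of 4.13. The medians of the 8 arrays ran from 5.89 to 5.94, and any 2 arrays correlated at 0.982 to 0.994 across probe sets. Against the label, the ileal bile acid binding protein Fabp6 was below the lower quartile in voglibose mouse 2 (3.54) and water mouse 4 (4.01), while water mouse 2 had 17.50. Voglibose mouse 2 also carried the pancreatic enzyme transcript Cpa1 at 12.01, against 4.72 to 5.37 in the other mice. The part of these differences in the results below was not tested, and results are given without these mice where a value turned on them.

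No member passed the test over the whole array (limma, Benjamini-Hochberg adjustment over 22206 probe sets), where adjusted p ran from 0.652 to 0.997, and 0% of all probe sets passed. An ordinary linear model passed 0 probe sets as well, with 1560 at an unadjusted p under 0.05, against 1671 with limma. At an unadjusted p under 0.05 there were 7 members, or 14% of 50, against 7.52% of all probe sets. With higher signal in voglibose mice there were 4 members (3.08% of all probe sets), namely Ccr1l1, Cxcr3, Ccl4 and Ccl28. With lower signal there were 3 (4.44% of all probe sets), namely Cxcl9, Cxcl14 and Cxcl10. The groups did not overlap in 5 members, 3 higher (1.82% of all probe sets) and 2 lower (2.53%), where 4.35% of all probe sets were so separated in either direction. Because no member passed over all genes, the unadjusted p of these 7 ranks them and is not a call. As to direction alone, 18 members were higher and 32 lower in voglibose mice, with a median difference of -0.064. Over all 22206 probe sets, 10896 were higher and 11310 lower, with a median of -0.005.

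**Figure D1:**
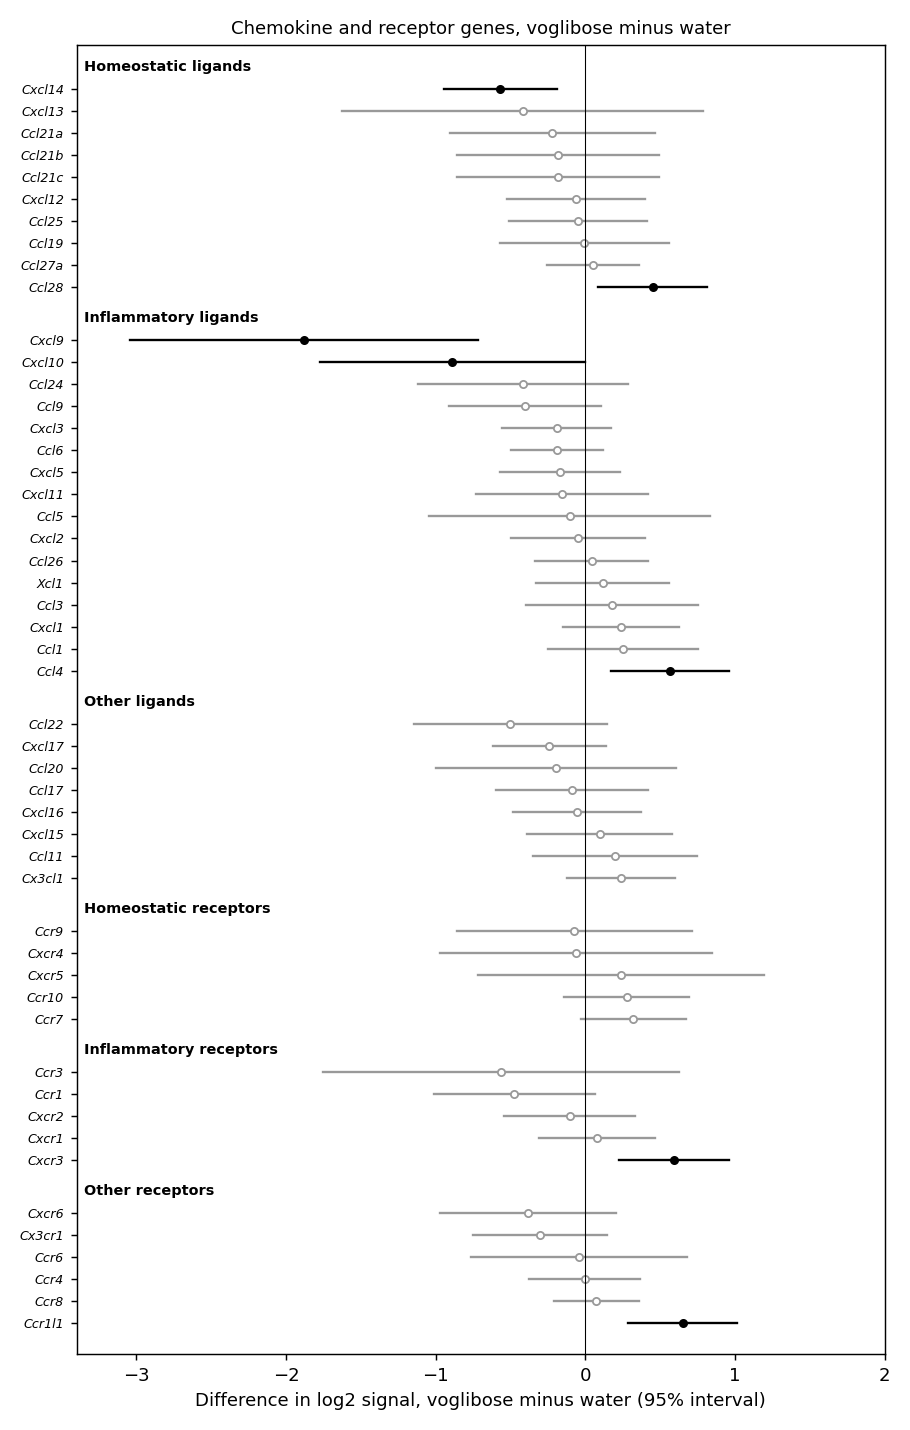
Difference in log2 signal, voglibose minus water, for each of the 50 members with its 95% interval (limma), grouped by role. Filled black points are the 7 members with an unadjusted p under 0.05, with Cxcl9 farthest to the left at -1.88 and Ccr1l1 farthest to the right at 0.65.

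Lower signal was the commoner direction among both homeostatic and inflammatory ligands, where 11310 of all 22206 probe sets were lower too. Of the 10 homeostatic ligands 2 were higher and 8 lower, with a median difference of -0.12. With the near-identical copies Ccl21a, Ccl21b and Ccl21c counted once, as Ccl21a, 6 of 8 were lower and the median was -0.055, a count added after the data were seen. Of the 16 inflammatory ligands 6 were higher and 10 lower, with a median of -0.13. Over all members of each role, the 2 medians ran from -0.32 to 0.0079 and from -0.19 to 0.019 when single mice were left out, so neither kept its sign throughout. The 8 other ligands had 3 higher and 5 lower members (median -0.074). Differences spanned a wider range among inflammatory ligands, from -1.88 to 0.57, than among homeostatic ligands, from -0.57 to 0.45. Of the 5 homeostatic receptors 3 were higher and 2 lower (median 0.24), of the 5 inflammatory receptors 2 were higher and 3 lower (median -0.11), and of the 6 other receptors 2 were higher and 4 lower (median -0.024).

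Cxcl9, the interferon-gamma-induced ligand of Cxcr3, had the largest difference of the 50 members. Its log2 signals were 8.52, 9.43, 7.27 and 8.83 in voglibose mice 1 to 4, against 9.47, 10.22, 9.97 and 11.92 in water mice 1 to 4. Every voglibose mouse lay below every water mouse, the closest being voglibose mouse 2 and water mouse 1. The difference was -1.88 ± 0.53 (SE), a ratio of 0.271 on the linear scale, with a 95% interval from -3.05 to -0.72 (unadjusted p = 0.00442, adjusted p = 0.652, limma). It stayed between -2.19 and -1.37 when any 1 mouse was left out and was -1.68 without voglibose mouse 2 and water mouse 4.

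Cxcl10, a neighbouring ligand of the same receptor, had signals of 5.03, 5.22, 5.02 and 5.72 in voglibose mice, against 5.47, 5.57, 5.91 and 7.60 in water mice. The groups overlapped, and water mouse 4 stood above all others. The difference of -0.89 ± 0.40 (SE; unadjusted p = 0.0492, adjusted p = 0.659, limma) became -0.40 without water mouse 4, with an unadjusted p of 0.0789. Cxcl11, the remaining interferon-induced ligand of Cxcr3, averaged 6.20 ± 0.26 in voglibose mice and 6.35 ± 0.57 in water mice (SD, n = 4 each), or -0.16 (95% interval -0.73 to 0.42). The 3 ligands thus differed in size of change, with intervals that overlapped, and the difference between them was not tested.

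Their receptor Cxcr3, carried by effector T cells and natural killer cells, stood the other way. It had 6.20, 6.64, 6.34 and 6.10 in voglibose mice, against 5.97, 5.47, 5.71 and 5.77 in water mice, with no overlap between the groups. The difference was 0.59 ± 0.17 (SE), a ratio of 1.51, with a 95% interval from 0.22 to 0.96 (unadjusted p = 0.00457, adjusted p = 0.652, limma), and it ran from 0.48 to 0.67 without single mice. The receptor signal was thus higher in the group in which the ligand Cxcl9 was lower.

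**Figure D2:**
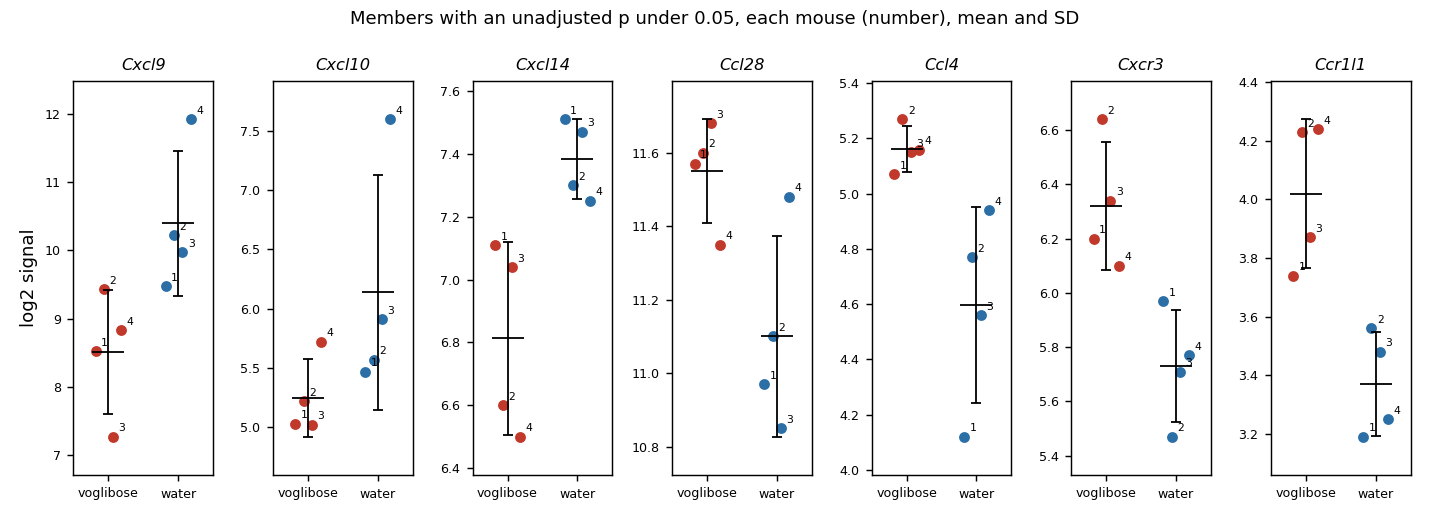
Log2 signal of the 7 members with an unadjusted p under 0.05 in each mouse (points, numbered by mouse), voglibose left and water right, with the mean and SD of each group of 4. The groups do not overlap in Cxcl9, Cxcl14, Ccl4, Cxcr3 and Ccr1l1, and water mouse 4 carries the highest Cxcl9 (11.92) and Cxcl10 (7.60).

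Interferon-stimulated genes mostly had lower mean signal in voglibose mice too, though the list means of the groups overlapped. Their part in the results on these ligands was not tested. In a list of 29 measured genes, 28 had lower and 1 higher signal in voglibose mice, with a median difference of -0.98. Of these genes 0 passed over all genes, and 12 had an unadjusted p under 0.05 with lower signal (4.44% of all probe sets). Among them the antiviral gene Oasl1 averaged 6.48 ± 0.52 in voglibose mice and 7.78 ± 1.08 in water mice, and the guanylate-binding protein gene Gbp2 averaged 8.06 ± 0.24 in voglibose mice and 8.66 ± 0.32 in water mice (SD, n = 4 each). The mean of the list, each gene taken relative to its own mean over the 8 mice, was -0.75, 0.37, -0.18 and -1.50 in voglibose mice, against -0.50, 0.05, 0.84 and 1.67 in water mice. Water mouse 4, with the highest list mean, also had the highest Cxcl9 and Cxcl10. Voglibose mouse 4, with the lowest list mean, had the highest Cxcl10 of its group, and the lowest Cxcl9 was in voglibose mouse 3. Over the 8 mice Cxcl11 had a Pearson r of 0.79 with the list mean (exact permutation p = 0.0179, adjusted p = 0.0358 over 12 relations) and a Spearman rho of 0.64 (exact permutation p = 0.0962, adjusted 0.128). Cxcl9 had r = 0.71 (exact permutation p = 0.0513, adjusted 0.0879) and rho = 0.69 (exact p = 0.0694, adjusted 0.128), and Cxcl10 had r = 0.68 (exact p = 0.0742, adjusted 0.111) and rho = 0.48 (exact p = 0.243, adjusted 0.292). Voglibose mouse 4 and water mouse 4 lie farthest from the list's median. Without them, r was 0.80 for Cxcl11, 0.47 for Cxcl9 and 0.67 for Cxcl10 (exact permutation p = 0.0611, 0.35 and 0.142). In the same order, rho was 0.60, 0.49 and 0.60 (exact permutation p = 0.242, 0.356 and 0.242). These p without the 2 mice are not adjusted. As the list and these ligands both had lower means in voglibose mice, r was also taken with group means removed, and was 0.84 for Cxcl11, 0.52 for Cxcl9 and 0.53 for Cxcl10. Ifng, the cytokine that induces Cxcl9, was dim and averaged 4.46 ± 0.35 in voglibose mice and 4.11 ± 0.26 in water mice (SD, n = 4 each), a difference of 0.34 ± 0.20 (SE).

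Among the other inflammatory ligands, those of the macrophage family differed in both directions. Ccl4, a ligand for T cells and macrophages, had 5.07, 5.27, 5.15 and 5.16 in voglibose mice, against 4.12, 4.77, 4.56 and 4.94 in water mice. The groups did not overlap, and all values lay below the middle of the array. The difference was 0.57 ± 0.18 (SE; 95% interval 0.17 to 0.96; unadjusted p = 0.00939, adjusted p = 0.652, limma) and ran from 0.41 to 0.68 without single mice. Ccl3, its close relative in sequence and function, averaged 5.50 ± 0.26 in voglibose mice and 5.32 ± 0.58 in water mice (SD, n = 4 each), with overlap (0.18 ± 0.26, SE). Ccl9 and Ccl6, which macrophages and myeloid cells of the mouse can make, were bright. Which cells gave their signal in this bulk ileum was not tested. Ccl9 averaged 10.74 ± 0.45 in voglibose mice and 11.14 ± 0.29 in water mice (SD, n = 4 each), a difference of -0.40 ± 0.23 (SE). Without voglibose mouse 3 it was -0.62, with an unadjusted p of 0.00883, and without water mouse 2 it was -0.53, with an unadjusted p of 0.0481. Ccl6 averaged 13.48 ± 0.17 in voglibose mice and 13.67 ± 0.075 in water mice, a difference of -0.19 ± 0.14. Ccr1, which binds this family, averaged 5.35 ± 0.34 in voglibose mice and 5.82 ± 0.47 in water mice, a difference of -0.48 ± 0.24. It was -0.66 without water mouse 1 (unadjusted p = 0.0167) and -0.60 without voglibose mouse 3 (unadjusted p = 0.0418). Ccr1l1, a receptor gene close to Ccr1 in sequence, had 3.74, 4.23, 3.87 and 4.24 in voglibose mice, against 3.19, 3.56, 3.48 and 3.25 in water mice. It had the smallest p of the members (0.65 ± 0.17, SE; unadjusted p = 0.00238, adjusted p = 0.652), but both group means lay below the lower quartile of the array, where a probe set carries mainly background.

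No neutrophil ligand or receptor had an unadjusted p under 0.05 with all 8 mice. Cxcl1, Cxcl2, Cxcl3 and Cxcl5 differed by 0.24 ± 0.18, -0.050 ± 0.20, -0.19 ± 0.16 and -0.17 ± 0.18 (SE), and all their group means lay below the middle of the array. Without voglibose mouse 4 Cxcl1 differed by 0.38, with an unadjusted p of 0.0379. The lung-type ligand Cxcl15 differed by 0.095 ± 0.22. The receptors Cxcr2 and Cxcr1 differed by -0.11 ± 0.20 and 0.078 ± 0.18, with 95% intervals from -0.54 to 0.33 and from -0.31 to 0.47. Neutrophil, eosinophil and mast cell markers were dim too, with a list level of 4.74 to 4.88 in voglibose mice and 4.74 to 5.06 in water mice. Of 15 measured, 2 were higher and 2 lower at an unadjusted p under 0.05. The lower ones were the calprotectin genes S100a9 (-0.58 ± 0.17) and S100a8 (-0.48 ± 0.17), abundant in neutrophils. The higher ones were the granule enzyme Mpo (0.45 ± 0.14) and the eosinophil interleukin receptor Il5ra (0.48 ± 0.17).

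Ligands and the receptor of eosinophils varied by mouse. Ccr3, the eotaxin receptor, had 6.41, 6.06, 8.94 and 6.34 in voglibose mice, against 7.21, 8.23, 7.44 and 7.12 in water mice. Voglibose mouse 3 was the highest of all 8 and the other 3 voglibose mice were the lowest. The difference was -0.56 ± 0.54 (SE; unadjusted p = 0.321, limma), and without voglibose mouse 3 it was -1.23 with an unadjusted p of 0.000769. Of 18 alternative fits, this alone gave an unadjusted p under 0.05, and that p is not adjusted for the choice of mouse. The eosinophil lectin Siglecf was also highest in its group in voglibose mouse 3 (6.39, against 4.94 to 5.58 in the rest of that group) and in water mouse 2 (6.83, against 5.56 to 5.95). Other eosinophil markers did not share this pattern. Prg2 was the lowest of its group in these mice, at 4.75 in voglibose mouse 3 and 4.95 in water mouse 2. Epx was highest in neither (3.38 and 3.23), and Il5ra was highest of its group in water mouse 2 (5.13) but not in voglibose mouse 3 (5.24). The eotaxin Ccl11, a steady product of the intestine that holds eosinophils there, averaged 11.58 ± 0.53 in voglibose mice and 11.38 ± 0.26 in water mice (SD, n = 4 each; 0.20 ± 0.25, SE). The other eotaxins were dim: Ccl24 differed by -0.42 ± 0.32 and by -0.040 without water mouse 4, which carried its highest signal of 5.68, and Ccl26 by 0.043 ± 0.17.

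Among homeostatic ligands, the mucosal chemokine Ccl28 and the epithelial chemokine Cxcl14 had the smallest p and differed in opposite directions. Ccl28, which draws IgA plasma cells that carry Ccr10, had 11.57, 11.60, 11.68 and 11.35 in voglibose mice, against 10.97, 11.10, 10.85 and 11.48 in water mice. Only water mouse 4 reached the range of the voglibose mice. The difference was 0.45 ± 0.17 (SE; 95% interval 0.086 to 0.81; unadjusted p = 0.0198, adjusted p = 0.658, limma) and ran from 0.37 to 0.58 without single mice, with an unadjusted p of up to 0.0596. Ccr10 was dim, at 3.57, 4.41, 3.63 and 3.98 in voglibose mice, against 3.55, 3.53, 3.66 and 3.75 in water mice (0.28 ± 0.19, SE). Of 9 plasma cell markers 8 were higher and 1 lower in voglibose mice, 0 at an unadjusted p under 0.05, with list levels of 8.53 to 9.61 in voglibose mice and 8.68 to 9.30 in water mice. Ccr10 had an r of 0.29 with their mean over the 8 mice (exact permutation p = 0.491, adjusted 0.536) and a rho of 0.21 (exact p = 0.619, adjusted 0.675). Without voglibose mouse 4 and water mouse 2, r was 0.73 (exact permutation p = 0.146) and rho was 0.31 (exact permutation p = 0.564).

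Cxcl14, made by epithelium and stroma in healthy tissue, had 7.11, 6.60, 7.04 and 6.50 in voglibose mice, against 7.51, 7.30, 7.47 and 7.25 in water mice. All voglibose mice lay below all water mice. The difference was -0.57 ± 0.17 (SE), a ratio of 0.674, with a 95% interval from -0.95 to -0.19 (unadjusted p = 0.00678, adjusted p = 0.652, limma), and it ran from -0.67 to -0.47 without single mice. Of 15 stromal, endothelial and lymphatic markers, 11 were lower and 4 higher in voglibose mice, and 1 had an unadjusted p under 0.05, the stromal proteoglycan Lum (-0.95 ± 0.41). Epithelial markers stood at 15.42 to 15.81 in voglibose mice and 15.45 to 15.85 in water mice, 8 of 15 higher and 0 at an unadjusted p under 0.05. The part of the stromal markers in the Cxcl14 result was not tested.

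Cxcl12, the stromal ligand of Cxcr4, differed little. It had 9.81, 9.86, 10.06 and 9.45 in voglibose mice, against 9.92, 10.14, 10.08 and 9.29 in water mice (-0.063 ± 0.21, SE). Ackr3, the scavenger receptor that removes Cxcl12 and Cxcl11, is no member but had the smallest p of 14 other chemokine system genes measured. It had 4.69, 4.30, 4.32 and 4.20 in voglibose mice, against 4.77, 5.61, 5.21 and 4.87 in water mice, without overlap (-0.74 ± 0.20, SE; unadjusted p = 0.00363, adjusted p = 0.652, limma). In that list, which holds the atypical receptors and the protease Dpp4, 6 genes were higher and 8 lower, with Ackr3 alone at an unadjusted p under 0.05. Of 26 genes of receptor signalling, 1 was higher (the phospholipase Plcb3, 0.38 ± 0.16) and 2 were lower (the receptor kinase Grk5, -0.39 ± 0.15, and the G protein regulator Rgs2, -0.90 ± 0.38) at an unadjusted p under 0.05. None of these passed over all genes, at adjusted p of 0.652 or above.

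The chemokines and receptors of lymphoid follicles varied more among mice given the same treatment than with the treatment. Cxcl13, which guides B cells into follicles, had 12.47, 12.48, 13.90 and 11.82 in voglibose mice, against 14.75, 12.06, 12.83 and 12.70 in water mice. Its receptor Cxcr5 had 4.54, 5.05, 6.07 and 4.28 in voglibose mice, against 5.93, 4.65, 4.23 and 4.19 in water mice. Ccr6, the receptor for Ccl20 on B cells of Peyer patches, had 4.35, 4.54, 5.48 and 4.26 in voglibose mice, against 5.60, 4.43, 4.51 and 4.26 in water mice. Each of the 3 genes was highest in voglibose mouse 3 and water mouse 1 of its group. Cxcr4, the Cxcl12 receptor on lymphocytes, was highest in the same mice, with 6.56, 6.70, 7.58 and 6.30 in voglibose mice, against 8.22, 6.42, 6.50 and 6.26 in water mice. Differences between the groups were -0.42 ± 0.55 for Cxcl13, 0.24 ± 0.43 for Cxcr5, -0.043 ± 0.33 for Ccr6 and -0.065 ± 0.41 for Cxcr4 (SE).

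B cell and follicle markers were highest in these 2 mice too. The mean of 14 measured markers, relative to each gene's mean over the 8 mice, was -0.50, 0.11, 1.32 and -0.72 in voglibose mice, against 1.47, -0.69, -0.34 and -0.64 in water mice. The complement receptor Cr2 of follicles and B cells had 6.03 in voglibose mouse 3 and 6.29 in water mouse 1, against 3.40 to 4.25 in the other mice. Of the 14 markers 10 were higher and 4 lower in voglibose mice, 0 at an unadjusted p under 0.05. As the 8 mice fell into 2 and 6, no correlation over all 8 is given. Among the 6 mice without high B cell markers, r with the list mean was 0.78 for Ccr6 (exact permutation p = 0.0472), 0.69 for Cxcr5 (exact permutation p = 0.121) and 0.45 for Cxcl13 (exact permutation p = 0.372). In the same order, rho was 0.78, 0.26 and 0.71 (exact permutation p = 0.0778, 0.658 and 0.136). These p are not adjusted, and the part of the B cell markers in the group differences of these receptors and ligands was not tested.

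Ccl20, the epithelial ligand of Ccr6 over Peyer patches, had 6.99, 8.04, 7.64 and 7.12 in voglibose mice, against 8.44, 6.80, 7.13 and 8.21 in water mice, and was thus high in water mouse 1 but also in voglibose mouse 2 and water mouse 4 (-0.20 ± 0.37, SE). The lymphatic and T zone ligands Ccl21a, Ccl21b and Ccl21c are near-identical copies. The probe sets of Ccl21b and Ccl21c had the same values in all 8 mice, so these copies cannot be told apart here, although each is counted among the 50 members. With the 3 genes counted once, 18 members were higher and 30 lower of 48. Ccl21a had 12.75, 13.39, 14.35 and 13.00 in voglibose mice, against 14.06, 13.65, 13.32 and 13.34 in water mice (-0.22 ± 0.31, SE), again highest in voglibose mouse 3 and water mouse 1 of each group. Without voglibose mouse 3 it differed by -0.55, with an unadjusted p of 0.0373. Ccl19, the other ligand of Ccr7, was dim and averaged 3.97 in voglibose mice and 3.98 in water mice.

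Ccr7 is the receptor that brings T cells and dendritic cells into lymphoid tissue. Like the follicle genes, Ccr7 was highest of its group in water mouse 1, but unlike them not in voglibose mouse 3. Its relation with the B cell markers was not tested. It had 6.42, 6.57, 6.48 and 6.65 in voglibose mice, against 6.44, 6.41, 5.88 and 6.11 in water mice. The difference was 0.32 ± 0.16 (SE; 95% interval -0.031 to 0.67; unadjusted p = 0.0701, limma), and leaving out water mouse 1 gave 0.40 (unadjusted p = 0.0428), while leaving out water mouse 2 gave 0.39 (unadjusted p = 0.0461). Its r with the mean of the T cell markers was -0.18 (exact permutation p = 0.66, rho -0.095 with exact permutation p = 0.84).

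**Figure D3:**
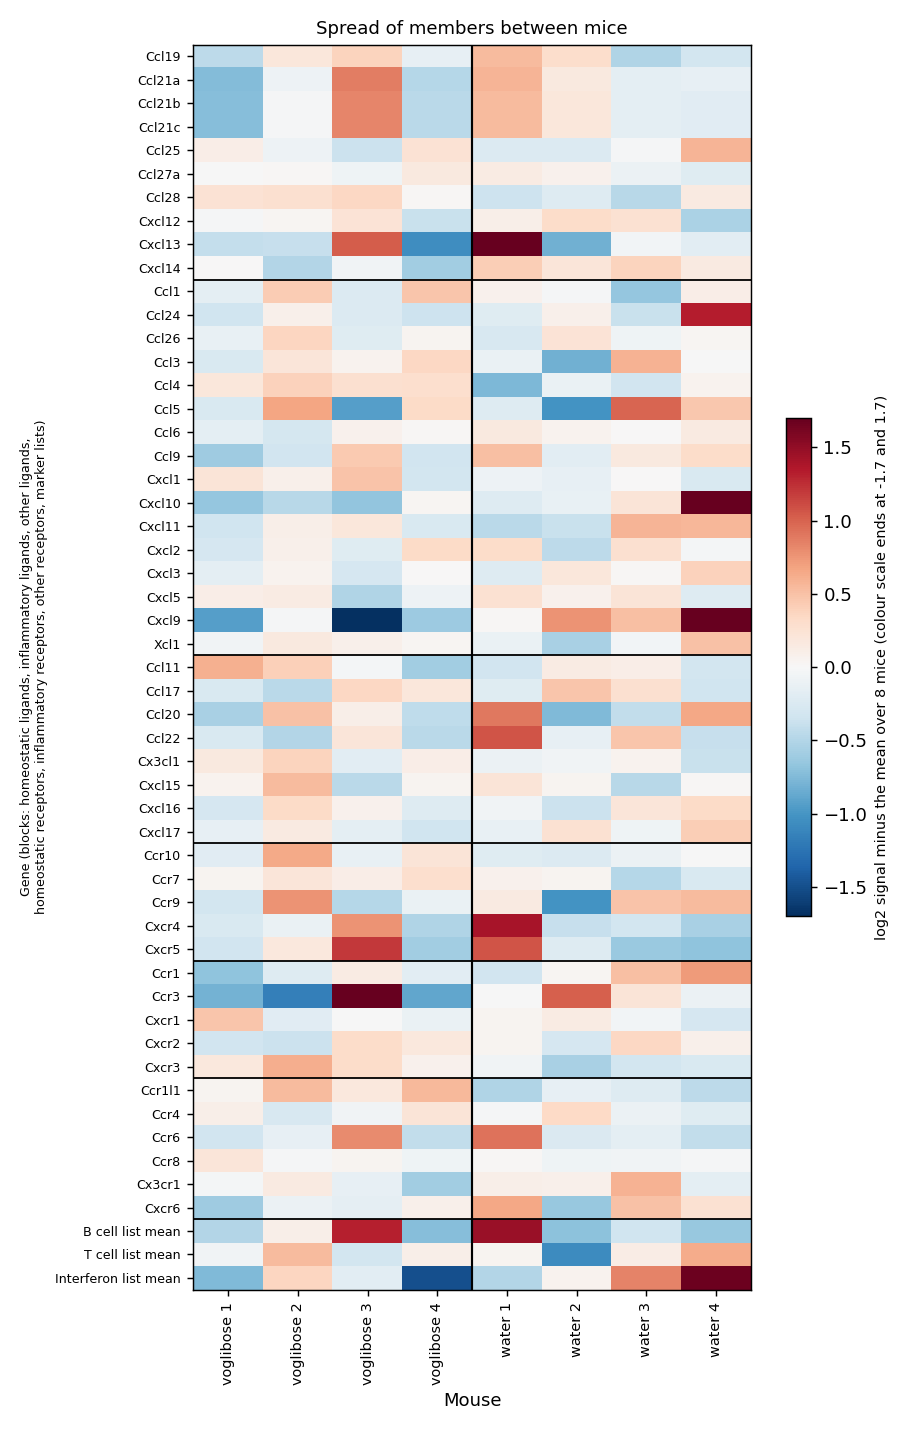
Log2 signal of each member in each mouse minus its mean over the 8 mice, by role, with voglibose mice left and water mice right, and the means of 3 marker lists in the bottom rows. Red cells at Cxcl13, Cxcr4, Cxcr5 and Ccr6 stand in voglibose mouse 3 and water mouse 1, where the B cell list is highest as well, at 1.32 and 1.47.

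Ccr9 and Ccl5 followed the T cell markers of each mouse, and their groups overlapped. Ccr9, the receptor that brings T cells to the small intestine, had 8.69, 9.76, 8.51 and 8.89 in voglibose mice, against 9.15, 7.98, 9.48 and 9.54 in water mice (-0.075 ± 0.36, SE). Ccl5, a ligand made by cytotoxic and intraepithelial T cells, had 6.48, 7.41, 5.81 and 7.07 in voglibose mice, against 6.53, 5.73, 7.73 and 7.20 in water mice (-0.11 ± 0.43, SE). Both were lowest in water mouse 2 among the water mice and in voglibose mouse 3 among the voglibose mice. The mean of 15 T cell and intraepithelial lymphocyte markers was -0.06, 0.54, -0.31 and 0.11 in voglibose mice, against 0.05, -1.07, 0.13 and 0.63 in water mice. Over the 8 mice Ccr9 had an r of 0.93 with this mean (exact permutation p = 0.000248, adjusted p = 0.00298 over 12 relations) and a rho of 0.95 (exact permutation p = 0.00114, adjusted 0.0137). Ccl5 had an r of 0.81 (exact permutation p = 0.00905, adjusted 0.0217) and a rho of 0.90 (exact permutation p = 0.00456, adjusted 0.0183). Without water mice 2 and 4, r was 0.91 for Ccr9 and 0.79 for Ccl5 (exact permutation p = 0.00694 and 0.0597, not adjusted). In these 6 mice rho was 0.94 for each gene (exact permutation p = 0.0167, not adjusted). With group means removed, r over the 8 mice was 0.95 for Ccr9 and 0.83 for Ccl5. The mean of 10 genes of the proximal small intestine varied between mice in nearly the same way, at 0.054, 0.97, -0.49 and -0.31 in voglibose mice, against 0.047, -1.48, 0.055 and 1.15 in water mice. Its part in the relations of Ccr9 and Ccl5 with the T cell markers was not tested. In the T cell list 13 markers were higher and 2 lower in voglibose mice, with 0 at an unadjusted p under 0.05.

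Ccl25, the epithelial ligand of Ccr9, had 8.42, 8.22, 7.94 and 8.55 in voglibose mice, against 8.08, 8.07, 8.29 and 8.88 in water mice. The groups differed by -0.048 (95% interval -0.51 to 0.41), which turned to 0.038 after a further quantile normalization. Of the 10 proximal genes 6 were higher and 4 lower, 0 at an unadjusted p under 0.05, and with their mean Ccl25 had an r of 0.58 (exact permutation p = 0.131, adjusted 0.174) and a rho of 0.64 (exact permutation p = 0.0962, adjusted 0.128), and an r of 0.058 without water mice 2 and 4, so that relation rests on those mice.

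**Figure D4:**
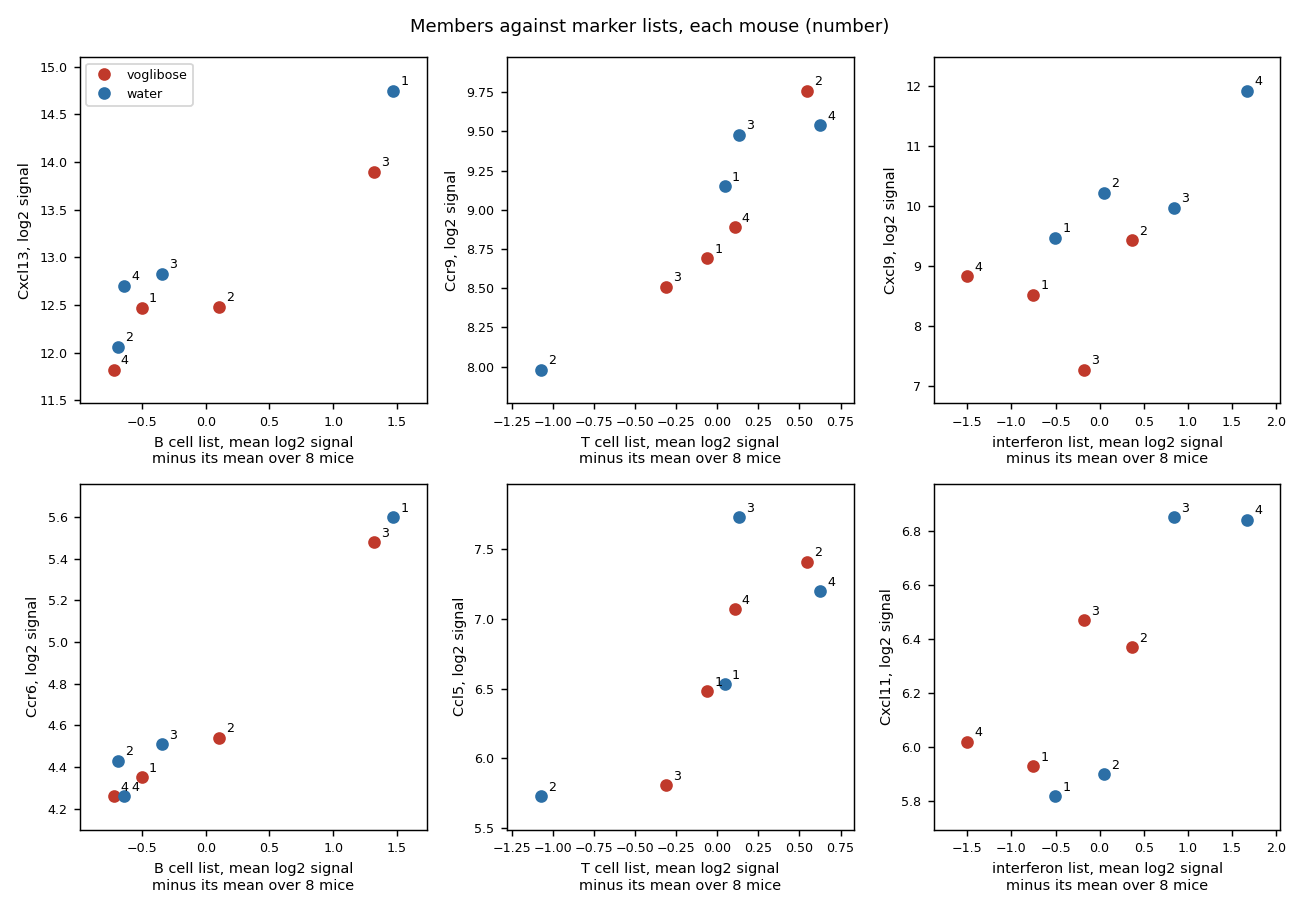
Log2 signal of 6 members against the mean of a marker list, each point 1 mouse with its number. Cxcl13 and Ccr6 are set apart by voglibose mouse 3 and water mouse 1, Ccr9 and Ccl5 rise along the T cell list with water mouse 2 lowest, and Cxcl9 is highest in water mouse 4.

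Cxcl16, a membrane-bound ligand of epithelium and macrophages, averaged 12.61 ± 0.28 in voglibose mice and 12.67 ± 0.30 in water mice (SD, n = 4 each), or -0.055 (95% interval -0.48 to 0.37). This turned to 0.011 after a further quantile normalization. Cxcr6, its receptor on tissue-resident lymphocytes, had 5.13, 5.64, 5.58 and 5.82 in voglibose mice, against 6.39, 5.09, 6.23 and 5.99 in water mice. Water mouse 2, which had the lowest T cell markers, lay below all voglibose mice. The difference was -0.38 ± 0.27 (SE; unadjusted p = 0.181, limma), and without water mouse 2 it was -0.66 with an unadjusted p of 0.00624. Only this 1 of 18 alternative fits gave Cxcr6 an unadjusted p under 0.05. Cx3cl1, the membrane-bound ligand fractalkine, averaged 8.08 ± 0.23 in voglibose mice and 7.84 ± 0.19 in water mice (0.24 ± 0.16, SE). Its receptor Cx3cr1, carried by resident macrophages of the gut, averaged 5.86 ± 0.32 in voglibose mice and 6.17 ± 0.31 in water mice (-0.31 ± 0.20, SE), and without voglibose mouse 2 and water mouse 4 it differed by -0.51 with an unadjusted p of 0.0402. Of 18 macrophage and dendritic cell markers, 9 were higher and 9 lower, and the mannose receptor Mrc1 alone had an unadjusted p under 0.05 (-0.42 ± 0.17). Their mean had an r of 0.55 with Cx3cr1 (exact permutation p = 0.153, adjusted 0.183), a rho of 0.64 (exact p = 0.0962, adjusted 0.128) and an r of 0.33 without voglibose mice 2 and 4.

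The remaining members are given by their differences. Ccl22 and Ccl17, dendritic cell ligands of Ccr4, differed by -0.50 ± 0.29 and -0.093 ± 0.23 (SE). Ccl22 was highest in water mouse 1, at 6.10, and it differed by -0.23 without that mouse and by -0.72 without water mouse 4 (unadjusted p = 0.0268). Ccr4 differed by -0.005 ± 0.17 and lay below the lower quartile, as did Ccr8 (0.073 ± 0.13), its ligand Ccl1 (0.25 ± 0.23) and the mucosal Cxcl17 (-0.24 ± 0.17). Ccl27a, a skin chemokine that also binds Ccr10, differed by 0.053 ± 0.14. Xcl1, made by activated T cells and natural killer cells, averaged 6.17 ± 0.093 in voglibose mice and 6.05 ± 0.43 in water mice (SD, n = 4 each; 0.12 ± 0.20, SE). Over all 50 members, 27 had a group mean above the middle of the array, 14 lay between it and the lower quartile, and 9 lay below the lower quartile. Of the 27 brighter members 21 were lower and 6 higher in voglibose mice (median -0.16), or 19 and 6 of 25 with Ccl21 counted once (median -0.11), where 6442 of 11333 probe sets above the middle of the array were lower too (median -0.042).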

How the data were processed

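Ileum RNA of 8 mice, 4 voglibose and 4 water, was measured on 1 Affymetrix array each, from 250 ng of total RNA per the labels' protocols. The deposited values are log2 signals per probe set, made with RMA and the Transcriptome Analysis Console per the submitters' processing notes. Versions, genome build and any batch are not given in the sources read, and the log2 scale was read from the values (2.09 to 19.55). Normalization between arrays hides a change in total RNA, and dim probe sets understate differences. The number of arrays limits the precision (median SE 0.18).

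All 22206 probe sets were fitted in R 4.3.3 with lmFit and eBayes of limma 3.58.1 (2-sided, Benjamini-Hochberg adjustment). The fit was also run on data simulated from the means and spreads of these arrays. Differences are voglibose minus water. The limma p-values set each difference against the spread between these mice. That spread is drawn toward the spread of all probe sets (prior degrees of freedom 5.09 of 11.09 in total). Symbols came from the platform annotation (19572 probe sets with 1 symbol, 0 with several, 2634 with none), and all 19572 matched a RefSeq table by gene identifier. Members, roles, 17 gene lists and the rule for named genes (members at an unadjusted p under 0.05, members whose groups did not overlap, and a panel of ligands and receptors, with up to 4 genes a list by p) were chosen with earlier results of these data known. In all, 12 relations with marker lists were tested by exact permutation over 40320 pairings. Same-numbered mice did not deviate together (correlations -0.32 to 0.015), so mouse numbers were not taken as pairs. One promoter element is not reported here. Alternatives were other normalizations, variance models, filters, a replicate block and leaving out mice.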

Additional observations from a re-analysis of the deposited data

Results flagged for a closer look

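In groups of 4 mice, 1 mouse stood far from the other 3 of its group in 3 of 100 tests over the 50 members and 2 groups, where chance flags about 1 in 20. Ccr3 in voglibose mouse 3 was at 8.94, against 6.06 to 6.41 in the rest of that group. Cxcr4 in water mouse 1 was at 8.22, against 6.26 to 6.50. Ccl1 in water mouse 3 was at 2.94, against 3.58 to 3.71, a dim signal below the lower quartile of the array.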

How the results depend on the processing

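With any 1 mouse left out, members at an unadjusted p under 0.05 numbered 5 to 10, and probe sets of the whole array 969 (without voglibose mouse 1) to 1906, against 1671. Restricted to probe sets above the middle of the array, these counts were 4 of 27 members and 1019 probe sets, against 5 and 1118 of the same members and probe sets in the fit to all. The replicate block gave 8 members and 1529 probe sets, and no adjusted call was made in any alternative (0 probe sets). Cxcl9, Cxcl14, Ccl4, Cxcr3 and Ccr1l1 kept their direction and an unadjusted p under 0.05 in every alternative in which they were tested. Ccl28 missed it without voglibose mouse 3, water mouse 1 or water mouse 3, and Cxcl10 missed it in 11 of 18 alternatives, where the cause was not tested. Ccr3, Cxcr6, Ccl21a and Cx3cr1 had an unadjusted p under 0.05 in only 1 of 18 alternatives, Ccl22 in 1 of 17 and Cxcl1 in 1 of 16. Ccl9 and Ccr7 had it in 2 of 18 and Ccr1 in 3 of 17. None of these had it in the main fit, and these p are not adjusted for the choice among alternatives. Medians without 1 mouse ran from -0.057 to 0.097 for receptors. Further quantile normalization turned Ccl25 to 0.038, Ccr9 to 0.0078, Cxcl12 to 0.021 and Cxcl16 to 0.011. Leaving out voglibose mouse 2 and water mouse 4 turned Ccl25 to 0.16, Ccl26 to -0.057, Ccl27a to -0.0067, Ccr4 to 0.017, Cxcl15 to -0.047 and Cxcr2 to 0.013. With single mice left out, differences that changed sign ran from -0.22 to 0.048 for Ccl17, -0.18 to 0.17 for Ccl19, -0.48 to 0.068 for Ccl20, -0.49 to 0.028 for Ccl21b and Ccl21c, -0.14 to 0.14 for Ccl25, -0.074 to 0.13 for Ccl26, -0.0092 to 0.11 for Ccl27a, -0.066 to 0.40 for Ccl3, -0.46 to 0.21 for Ccl5, -0.078 to 0.11 for Ccr4, -0.32 to 0.26 for Ccr6, -0.43 to 0.093 for Ccr9, -0.33 to 0.011 for Cxcl11, -0.25 to 0.053 for Cxcl12, -0.83 to 0.14 for Cxcl13, -0.070 to 0.26 for Cxcl15, -0.18 to 0.043 for Cxcl16, -0.21 to 0.045 for Cxcl2, -0.067 to 0.15 for Cxcr1, -0.23 to 0.00083 for Cxcr2, -0.33 to 0.39 for Cxcr4, -0.13 to 0.63 for Cxcr5 and -0.052 to 0.30 for Xcl1. Signal near background limits the 9 members below the lower quartile.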

Other observations

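Il13, a type 2 cytokine, was the 1 gene of 16 cytokines that induce chemokines with an unadjusted p under 0.05, at 4.23, 3.64, 3.87 and 4.40 in voglibose mice, against 3.41, 3.89, 3.27 and 3.60 in water mice (0.49 ± 0.20, SE; adjusted p = 0.658, limma), and its values were near background. Il1b, the inflammasome cytokine, had 6.78, 6.78, 7.90 and 6.89 in voglibose mice, against 7.70, 7.50, 7.57 and 7.56 in water mice (-0.50 ± 0.24, SE). Voglibose mouse 3, the mouse with the highest Ccr3, lay above all water mice, and the other 3 voglibose mice lay below all of them. Of 9 NF-kappaB feedback genes, 3 were higher and 6 lower, and Nfkbie alone had an unadjusted p under 0.05 (-0.38 ± 0.16). Innate lymphoid cell markers were higher in 2 and lower in 5 of 7 measured, and distal ileum genes were higher in 3 and lower in 8 of 11, none at an unadjusted p under 0.05. Smooth muscle and enteric neuron markers were higher in 7 and lower in 4 of 11, with 0 at an unadjusted p under 0.05, and pancreas, fat and blood markers were higher in 5 and lower in 3 of 8, with the trypsinogen gene Prss1 alone at an unadjusted p under 0.05 (0.83 ± 0.36) and highest in voglibose mouse 2, at 5.77.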
